A study of Homo sapiens with 8 samples.

Results

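Aminoacyl-tRNA synthetases are the enzymes that join each amino acid to its transfer RNA (tRNA), and they were followed here through ribosome footprints in IMR32 cells, a human neuroblastoma line with amplified MYCN. The 38 genes were taken by name from a table of 60651 genes: 19 genes of cytosolic synthetases, 3 scaffold genes of the multi-synthetase complex (AIMP1, AIMP2 and EEF1E1) and 16 genes of mitochondrial synthetases, whose symbols end in 2. Each symbol matched 1 Ensembl identifier. The choice used no measured value.

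Human cells charge tRNA in both the cytosol and the mitochondrial matrix, with separate enzymes for most amino acids, all encoded in the nucleus. GARS1 and KARS1 supply both compartments from 1 gene each, EPRS1 carries glutamyl- and prolyl-tRNA synthetase in 1 polypeptide, and FARSA and FARSB are the 2 kinds of subunit of 1 cytosolic enzyme. Several cytosolic synthetases sit in a large complex held together by AIMP1, AIMP2 and EEF1E1 (also called AIMP3). ATF4, the transcription factor of the integrated stress response, is known to induce many cytosolic synthetase genes when amino acids run short or translation initiation is impaired, through a composite C/EBP-ATF element.

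Ribosome profiling, which sequences mRNA fragments shielded by ribosomes, was carried out on 4 libraries from cells treated with CR31B and 4 from cells given its solvent DMSO (0.1%). CR31B is an analogue of silvestrol, a rocaglate that acts on the RNA helicase eIF4A. All cells were labelled wild type and grown in the same medium, and cycloheximide, which halts ribosomes, was added after 6 h in both groups. Fragments of 28 to 30 nucleotides were selected. The design text calls the replicates biological without saying what separates them, so p-values measure the spread between these libraries. Levels are in TPM, a unit of transcript abundance that corrects for transcript length and adds up to the same total in all libraries. Each value is thus a share, and a gene can gain TPM because other genes lost footprints, without more footprints of its own. Total reads per library are not given by TPM. No matched RNA-seq was used here, so more mRNA and more ribosomes on each mRNA cannot be told apart, nor can a change in all cells and one in some of them.

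Of the 9 adrenergic neuroblastoma markers searched, 8 were at 1 TPM or more in every library, with MYCN from 542 to 1076 TPM. TH, the exception, lay between 0.35 and 1.19 TPM. All 4 blood, all 3 glial and all 3 epithelial markers stayed under 1 TPM, while the fibroblast markers COL1A1 and PDGFRB reached 16.1 and 4.31 TPM. The part of the fibroblast markers in the results was not tested. CR31B replicate 1 stood apart: protein-coding genes took 61.3% of its TPM, against 51.8% to 52.3% in the other CR31B libraries and 52.0% to 58.4% in DMSO.

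The composite element, searched as TGATGNAA on both strands, was present near the start of 7 cytosolic synthetase genes. Of the 16 cytosolic genes with a promoter entry, 43.8% held the letters. The stretches of 30 bases around the matches are shown because 3 of the 5 cytosolic genes that rose are among them. Each is read 5′ to 3′ on the gene's strand, with the match in capitals. Members outside the 5 were added after the matches were seen.
CARS1: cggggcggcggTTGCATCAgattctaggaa
TARS1: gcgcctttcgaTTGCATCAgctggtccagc
GARS1: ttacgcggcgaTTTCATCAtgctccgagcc
MARS1: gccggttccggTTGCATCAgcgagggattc
AARS1: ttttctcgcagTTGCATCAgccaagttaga
IARS1: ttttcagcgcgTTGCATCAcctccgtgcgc
NARS1: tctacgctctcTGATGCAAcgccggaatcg
YARS2: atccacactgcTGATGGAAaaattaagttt
The sequences are RefSeq's on GRCh38.p14, from windows of 250 bases before and 50 bases after each annotated start. YARS2 was the 1 mitochondrial gene with a match.

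The stretches lie at chr11:3057407-3057436 (CARS1, minus strand), chr5:33440956-33440985 (TARS1, plus), chr7:30594834-30594863 (GARS1, plus), chr12:57488053-57488082 (MARS1, plus), chr16:70289675-70289704 (AARS1, minus), chr9:92293692-92293721 (IARS1, minus), chr18:57621804-57621833 (NARS1, minus) and chr12:32756076-32756105 (YARS2, minus). Relative to the annotated start, with the first transcribed base as 1, the match began at -33 in GARS1, -13 in IARS1, -4 in MARS1, -2 in CARS1, 3 in TARS1 and 15 in NARS1. It began farther upstream, at -187, in AARS1 and at -197 in YARS2. The CARS1 and MARS1 matches span the start, and those of TARS1 and NARS1 lie in the first exon. The same 8 letters, TTGCATCA, occurred in CARS1, TARS1, MARS1, AARS1 and IARS1, and their reverse complement in NARS1.

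Promoter entries existed for 33 of the 38 members; AARS2, LARS1, VARS1, VARS2 and YARS1 had none. At least 1 window held the letters in 7 of 16 cytosolic genes (43.8%), in 1 of 14 mitochondrial genes (7.14%), in 0 of 3 scaffold genes and in 4.46% of all 27305 gene symbols. Over windows of the same length, 3.62% of 35116 held them. A match of letters is a description and not a binding site.

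The main comparison asked which synthetase footprints differed after CR31B. Footprints of 5 cytosolic synthetases rose: CARS1, TARS1, GARS1, RARS1 and SARS1, by 1.47 to 2.08 times in mean TPM. The mitochondrial asparaginyl-tRNA synthetase NARS2 fell to 0.575 times its DMSO mean. The other 32 members did not pass the test, a limma fit on log2(TPM + 1) over 11778 genes with Benjamini-Hochberg adjusted p under 0.05. All 38 members had a mean of at least 1 TPM and were tested. Among all genes tested, 3.45% were called higher, 4.02% lower and 7.46% either way.

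CARS1 (ENSG00000110619.18), the cysteinyl-tRNA synthetase, gave 28.9, 15.5, 21.7 and 19.8 TPM across CR31B replicates 1 to 4, while DMSO replicates 1 to 4 gave 10.8, 8.81, 11.1 and 10.6 TPM. Every CR31B library lay above every DMSO library, and replicate 1 was the highest. The log2 fold change of CARS1 was 0.96, with an SE of 0.17 and a 95% confidence interval from 0.58 to 1.34 (limma adjusted p of 0.00981).

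TARS1 (ENSG00000113407.14), the threonyl-tRNA synthetase, was at 130.1, 122, 87.2 and 113 TPM in CR31B and at 51.0, 66.8, 50.9 and 69.99 TPM in DMSO. The groups were separate, with the lowest CR31B value in replicate 3. The log2 fold change reached 0.91, with an SE of 0.16 (limma adjusted p of 0.00882). The mitochondrial threonyl enzyme TARS2 showed 69.0, 46.3, 58.9 and 48.5 TPM with CR31B against 49.8, 44.1, 54.2 and 44.6 TPM with DMSO, which overlap (limma adjusted p of 0.462). GARS1 (ENSG00000106105.15), which makes glycyl-tRNA for cytosol and mitochondria, was at 181, 128, 147 and 143 TPM in CR31B and at 85.9, 73.3, 79.1 and 92.1 TPM in DMSO. All CR31B libraries again lay above all DMSO libraries. For GARS1 the log2 fold change was 0.85, with an SE of 0.13 (limma adjusted p of 0.00515). It has no separate mitochondrial gene.

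RARS1 (ENSG00000113643.9), the arginyl-tRNA synthetase and a member of the complex, was at 44.3, 44.0, 47.5 and 45.1 TPM in CR31B and at 25.9, 25.9, 29.2 and 30.4 TPM in DMSO. The 4 CR31B values lay close together, with an SD of 1.62 TPM around 45.2, and in RARS1 CR31B replicate 1 was not the highest. This amounts to a log2 fold change of 0.68, with an SE of 0.10 (limma adjusted p of 0.00431). RARS2, the mitochondrial arginyl enzyme, showed 8.31, 7.86, 10.8 and 8.24 TPM with CR31B against 6.95, 8.22, 9.24 and 7.72 TPM with DMSO, and the groups overlapped (limma adjusted p of 0.668). RARS1 had a RefSeq window without the composite element.

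SARS1 (ENSG00000031698.13), the seryl-tRNA synthetase, was the most abundant member. It stood at 387, 312, 298 and 320.1 TPM in CR31B and at 226, 224, 217 and 227 TPM in DMSO, so the groups did not overlap. SARS1 had a log2 fold change of 0.55, with an SE of 0.11 (limma adjusted p of 0.0166), and the call was lost without DMSO replicate 4 (limma adjusted p of 0.0532). SARS1 windows held no composite element. SARS2, which serves mitochondrial serine tRNA, showed 4.67, 4.94, 7.89 and 5.14 TPM with CR31B against 5.72, 4.35, 6.15 and 4.79 TPM with DMSO, with CR31B replicate 3 the highest of the 8 (limma adjusted p of 0.840).

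NARS2 (ENSG00000137513.10), which charges mitochondrial asparagine tRNA, was at 34.1, 22.6, 29.1 and 26.4 TPM in CR31B and at 51.8, 41.3, 50.01 and 51.97 TPM in DMSO. All CR31B libraries lay below all DMSO libraries. NARS2 thus had a log2 fold change of -0.79, with an SE of 0.14 and a 95% confidence interval from -1.10 to -0.47 (limma adjusted p of 0.00956). In DMSO it had the highest mean of the mitochondrial members, 48.8 ± 5.08 TPM, near the 48.2 ± 4.79 TPM of TARS2 (SD, n = 4 each). The call held in all 17 alternative fits, with log2 fold changes from -0.88 to -0.69.

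**Figure D1:**
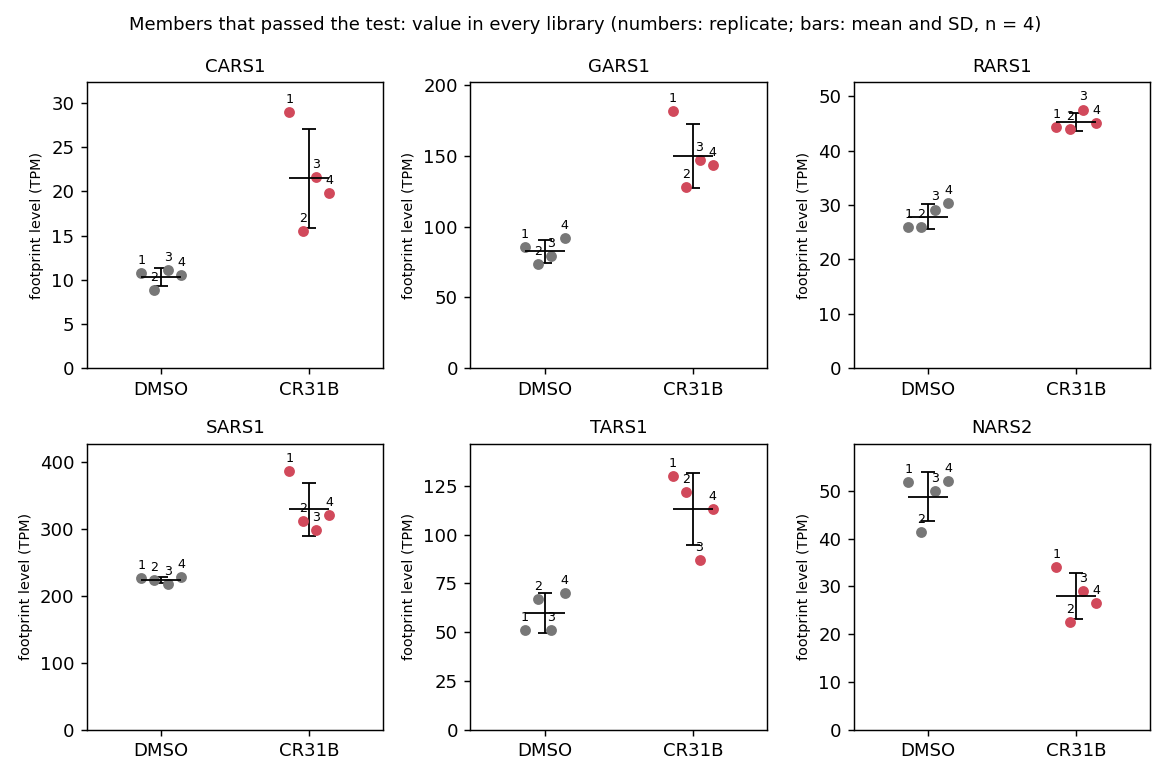
Footprint level in TPM (vertical axis, from 0) of the 6 members that passed the test, with 1 point for each DMSO or CR31B library, numbered by replicate, and bars for the mean and SD. The 5 cytosolic genes are higher and NARS2 is lower in every CR31B library than in any DMSO library.

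Most of the cytosolic set had higher means with CR31B. Log2 fold changes above 0 were seen in 16 of the 19 cytosolic synthetases; their median was 0.37 and the range ran from -0.17 to 0.96. Over all genes tested 54.1% were above 0 and the median was 0.029. No cytosolic member passed the limma test as lower, and 11 had an unadjusted limma p under 0.05, against 23.4% of all genes tested. CR31B groups lay wholly above DMSO for 7 of the 19, against 8.07% of all genes tested, and wholly below for 0, against 8.14%. These summaries describe the list and are not a test of it.

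Together the 19 cytosolic synthetases took 0.220%, 0.175%, 0.174% and 0.176% of TPM in CR31B replicates 1 to 4 and 0.142%, 0.131%, 0.138% and 0.141% in DMSO. Each CR31B value was above each DMSO value. As a share of protein-coding TPM they ranged between 0.332% and 0.359% with CR31B and between 0.240% and 0.264% with DMSO, and CR31B replicate 1 was again the highest, followed by the others at up to 0.339%. In 20 of the 22 cytosolic and scaffold genes CR31B replicate 1 was the highest CR31B library. Without that library the same 6 members passed the limma test.

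**Figure D2:**
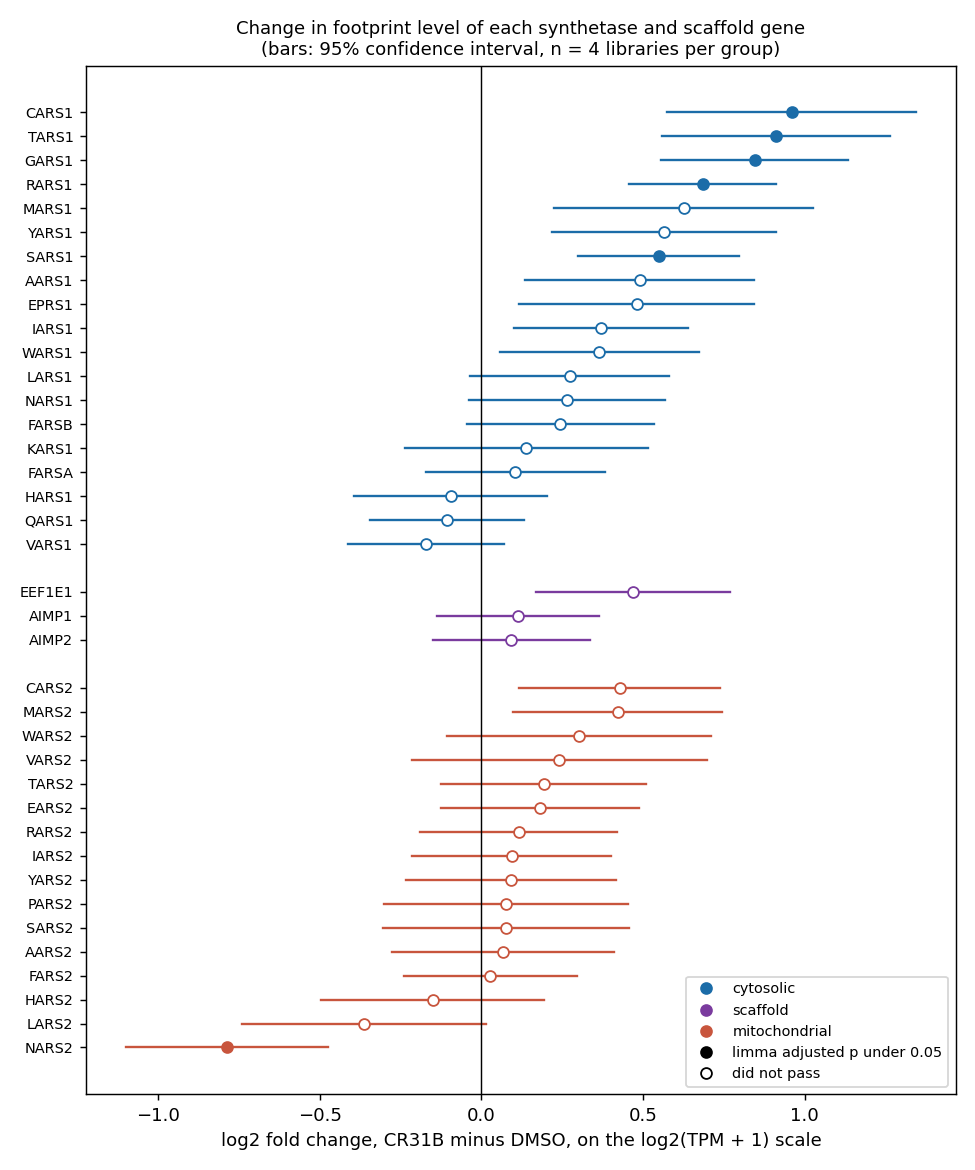
Log2 fold change of each member, CR31B minus DMSO on the log2(TPM + 1) scale (horizontal axis), with its 95% confidence interval; filled points passed the limma test. The cytosolic genes run from -0.17 to 0.96, the mitochondrial genes from -0.79 to 0.43.

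A further 5 members passed in some fits only. With the replicate number as a block, which uses the shared deviation of same-numbered libraries, 10 of the 22 cytosolic and scaffold genes were called higher, against 5.77% of all genes tested. NARS2 was the 1 member called lower in that fit, against 6.56%, which makes 11 of 38 members either way, against 12.3%. AARS1, EPRS1, MARS1, YARS1 and EEF1E1 were added. The same 5 were added when TPM was rescaled over protein-coding genes, a fit that called 544 of all 11778 genes higher.

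YARS1 (ENSG00000134684.12), the tyrosyl-tRNA synthetase, was at 215, 131, 202 and 181 TPM in CR31B and at 129, 107, 119.9 and 128 TPM in DMSO. Its groups were separate by a narrow margin, set by replicate 2 of CR31B. The log2 fold change of YARS1 was 0.56 (SE 0.16), with a limma adjusted p of 0.0546, and 0.0172 with the block. MARS1 (ENSG00000166986.15), the methionyl-tRNA synthetase, was at 242, 202, 164 and 159 TPM in CR31B and at 118, 117, 164 and 98.7 TPM in DMSO. Here DMSO replicate 3 reached the CR31B values and the groups overlapped. The limma adjusted p of MARS1 was 0.0624, at a log2 fold change of 0.63 (SE 0.18), and it was 0.0464 with the block and 0.0275 without DMSO replicate 3. DDIT3, a stress gene on the opposite strand, shares exon bases with MARS1 and had a mean of 1.31 TPM.

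AARS1 (ENSG00000090861.17), the alanyl-tRNA synthetase, spanned 17.4 to 25.2 TPM with CR31B and 12.1 to 18.99 TPM with DMSO. In each of the 4 replicate pairs the CR31B library was the higher, although the groups overlapped. The log2 fold change of AARS1 stood at 0.49 (SE 0.16; limma adjusted p of 0.0938, and 0.0189 with the block). EPRS1 (ENSG00000136628.18) spanned 56.1 to 89.8 TPM with CR31B and 40.4 to 57.7 TPM with DMSO. It too was higher in 4 of 4 pairs; the log2 fold change stood at 0.48 (SE 0.16), with a limma adjusted p of 0.108, and 0.0210 with the block.

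The cytosolic members were divided by what is known of their regulation. The 12 described as ATF4 targets (AARS1, CARS1, EPRS1, GARS1, IARS1, LARS1, MARS1, NARS1, SARS1, TARS1, WARS1 and YARS1) showed a median of 0.52 on the log2 scale, and all 12 were above 0, from 0.27 in NARS1 to 0.96 in CARS1. The limma test called 4 of them higher, against 3.45% of all genes tested, and 8 with the replicate block, against 5.77%. The other 7 (FARSA, FARSB, HARS1, KARS1, QARS1, RARS1 and VARS1) had a median of 0.11, with 4 above 0, and RARS1 was the 1 called higher in either fit. Relative to the DMSO mean, the median of the 12 was 0.81, 0.46, 0.43 and 0.44 on the log2 scale in CR31B replicates 1 to 4, and from -0.17 to 0.071 in DMSO. That of the 7 was 0.37, 0.084, -0.080 and 0.014 in CR31B, and from -0.065 to 0.083 in DMSO. For the 12 the groups were separate, and for the 7 they overlapped. The list of 12 was set from general knowledge, with earlier results of these data known. The difference between the 12 and the 7 was not tested.

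ATF4 itself was at 313, 204, 280.0 and 309 TPM in CR31B and at 172, 176, 106 and 181 TPM in DMSO. ATF4 had a log2 fold change of 0.81, with an SE of 0.20 (limma adjusted p of 0.0338). The call was lost without the filter on low genes (limma adjusted p of 0.130) and without any 1 of 6 libraries (0.0604 to 0.0906): CR31B replicates 1, 3 and 4 and DMSO replicates 1, 2 and 4. Gene-level values do not separate footprints on ATF4's upstream reading frames from those on its coding sequence.

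By promoter letters, the 7 cytosolic genes with the composite element showed a median of 0.63 on the log2 scale, and 3 were called higher. The 9 with windows that lacked it had a median of 0.24, ranging from -0.11 to 0.68, with RARS1 and SARS1 called higher. The share called higher among all genes tested was 3.45%. All 7 with the element are among the 12 described ATF4 targets, so the divisions are not independent.

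Members of the multi-synthetase complex were compared with synthetases outside it. The 7 complex synthetases (EPRS1, IARS1, KARS1, LARS1, MARS1, QARS1 and RARS1) showed a median of 0.37. Of these RARS1 alone was called higher, against 3.45% of all genes tested. IARS1, the isoleucyl-tRNA synthetase, was at 124, 114, 104 and 94.3 TPM in CR31B and at 75.4, 92.4, 89.96 and 78.5 TPM in DMSO, with separate groups. The difference, 0.37 on the log2 scale with an SE of 0.12, did not pass (limma adjusted p of 0.0965). LARS1, the leucyl-tRNA synthetase, spanned 84.1 to 112 TPM with CR31B and 66.9 to 89.6 TPM with DMSO, with a log2 fold change of 0.27. KARS1, the lysyl-tRNA synthetase of both compartments, was at 33.9 ± 7.43 and 30.6 ± 5.15 TPM (SD, n = 4 each). QARS1, the glutaminyl-tRNA synthetase, was lower in CR31B in 4 of 4 pairs, at 90.8 ± 7.97 against 97.7 ± 6.36 TPM, within the spread between libraries (limma adjusted p of 0.605).

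The 3 scaffold genes were not called by the limma fit, and 1 had an unadjusted p under 0.05. That gene, EEF1E1 (ENSG00000124802.12), was at 72.0, 50.7, 70.7 and 58.5 TPM in CR31B and at 46.8, 48.4, 45.1 and 39.3 TPM in DMSO. Its groups were separate, and the log2 fold change was 0.47 (SE 0.14, limma adjusted p of 0.0624, and 0.0438 with the block). EEF1E1 shares exons with the readthrough gene EEF1E1-BLOC1S5, at a mean of 8.67 TPM, so its value is uncertain. AIMP1 and AIMP2, at log2 fold changes of 0.11 (95% confidence interval -0.14 to 0.36) and 0.093 (-0.15 to 0.34), showed no difference detectable beyond the spread between libraries.

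The 12 cytosolic synthetases outside the complex showed a median of 0.43. Of these CARS1, GARS1, SARS1 and TARS1 were called higher, against 3.45% of all genes tested. WARS1, the tryptophanyl-tRNA synthetase, spanned 65.1 to 91.4 TPM with CR31B and 52.5 to 71.7 TPM with DMSO (log2 fold change 0.36, limma adjusted p of 0.145). NARS1, the cytosolic asparaginyl-tRNA synthetase, was at 137, 106, 94.9 and 104 TPM with CR31B and at 101, 79.1, 87.7 and 98.4 TPM with DMSO. The groups overlapped, with means of 111 ± 18.1 and 91.4 ± 9.94 TPM (SD, n = 4 each; limma adjusted p of 0.276). FARSA and FARSB, whose products pair in 1 enzyme, had log2 fold changes of 0.11 and 0.24. VARS1, the valyl-tRNA synthetase, which binds the elongation factor eEF1B, had the lowest value of the set, -0.17 (95% confidence interval -0.41 to 0.070), and was lower in CR31B in 4 of 4 pairs. HARS1, the histidyl-tRNA synthetase, was at -0.096, with overlapping groups, and turned to 0.0073 without CR31B replicate 3.

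By enzyme class, the 10 cytosolic class I genes showed a median of 0.43, with 2 called higher, and the 9 class II genes 0.27, with 3 called higher. Among all genes tested 3.45% were called higher. EPRS1, which joins a class I glutamyl enzyme and a class II prolyl enzyme, was counted in class I only. Genes that passed occurred in both structural families.

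In the mitochondrial set 1 gene passed the test. Log2 fold changes lay above 0 in 13 of its 16 genes, against 54.1% of all genes tested, and the median was 0.093. The gene called was NARS2, where 4.02% of all genes were called lower. None passed the limma test as higher, and 3 of the 16 had an unadjusted p under 0.05, which is no more than the 23.4% over all genes tested. Together these genes took between 0.0205% and 0.0274% of TPM with CR31B and between 0.0211% and 0.0251% with DMSO, so the groups overlapped.

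In 2 mitochondrial genes, CARS2 and MARS2, all CR31B libraries lay above all DMSO libraries, a count close to the 8.07% of all genes tested. CARS2, the mitochondrial cysteinyl-tRNA synthetase, was at 17.1, 17.4, 15.0 and 14.1 TPM in CR31B and at 12.3, 11.7, 13.5 and 9.03 TPM in DMSO (a log2 difference of 0.43 with SE 0.14; limma adjusted p of 0.0948). MARS2, which charges mitochondrial methionine tRNA, was at 8.34, 5.31, 5.96 and 6.43 TPM in CR31B and at 4.68, 4.04, 4.88 and 4.63 TPM in DMSO (a log2 difference of 0.42 with SE 0.15; limma adjusted p of 0.112). Neither passed the test. In MARS2 replicate 1 was the highest CR31B library, and in CARS2 it was not.

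LARS2, the mitochondrial leucyl-tRNA synthetase, was at 7.00, 4.78, 4.71 and 5.34 TPM in CR31B and at 9.63, 6.26, 6.02 and 7.44 TPM in DMSO. It was lower in CR31B in 4 of 4 pairs, while the groups overlapped through replicate 1 (log2 fold change -0.36, limma adjusted p of 0.233). HARS2, the third gene below 0, was at 15.7 ± 3.14 and 17.5 ± 2.73 TPM (SD, n = 4 each). HARS1 and HARS2 are read in opposite directions from starts 85 bp apart and share exon bases, and with no strand setting stated their footprints may be mixed. HARS2 also shares exon bases with ZMAT2 on the same strand, at a mean of 137 TPM. The remaining 11 mitochondrial genes (AARS2, EARS2, FARS2, IARS2, PARS2, RARS2, SARS2, TARS2, VARS2, WARS2 and YARS2) had log2 fold changes from 0.028 in FARS2 to 0.30 in WARS2. TARS2 was the most abundant of these, with the values given above. PARS2, the mitochondrial prolyl-tRNA synthetase, was the least abundant member of all, between 0.96 and 1.84 TPM.

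The change of each cytosolic gene was set against that of its mitochondrial partner within the same library, as the log2 ratio of (TPM + 1). There were 17 such pairs for 16 amino acids, and in 16 pairs the mean ratio was higher with CR31B, with a median difference of 0.40. In 5 pairs the ratios of the groups did not overlap (exact permutation p of 0.0286 each, two-sided, the smallest that 70 assignments of 4 and 4 libraries allow). After Benjamini-Hochberg adjustment over the 17 pairs the smallest exact p was 0.0971, so no single pair passed 0.05. With the smallest p fixed at 0.0286, this outcome depends on how many pairs reach it. It does not weigh the size of any 1 difference. EPRS1 and FARS2 each occur in more than 1 pair, so the pairs are not all independent.

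The largest difference among these pairs was that of NARS1 to NARS2. Its log2 ratio was 1.97, 2.19, 1.67 and 1.94 in CR31B and 0.94, 0.92, 0.80 and 0.91 in DMSO, a difference of 1.05. In TPM the cytosolic gene stood at 1.88 times the mitochondrial one in DMSO and at 3.95 times in CR31B. LARS1 to LARS2 differed by 0.64, from 3.25 ± 0.12 to 3.88 ± 0.12, although neither gene passed on its own. RARS1 to RARS2 differed by 0.57, from 1.68 ± 0.15 to 2.25 ± 0.14, and AARS1 to AARS2 by 0.42, from 1.54 ± 0.13 to 1.97 ± 0.045 (SD, n = 4 each). EPRS1 to PARS2 differed by 0.40, with the lowest CR31B ratio at 4.600 and the highest DMSO ratio at 4.597. PARS2 lay between 0.96 and 1.84 TPM, so the 1 TPM added to each value weighs heavily in this ratio. With 0.1 or 0.5 TPM added instead, 4 pairs were separate and EPRS1 to PARS2 overlapped.

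For 3 of the genes that rose, the partner ratio overlapped between groups. CARS1 to CARS2 differed by 0.53 (exact permutation p of 0.0571), and in TPM the cytosolic gene went from 0.888 to 1.35 times its partner. TARS1 to TARS2 differed by 0.72 (exact permutation p of 0.0857) and SARS1 to SARS2 by 0.47 (0.114), each higher in 4 of 4 replicate pairs. VARS1 to VARS2 was the exception in direction, with a difference of -0.41 and a lower ratio in CR31B in 4 of 4 pairs (exact permutation p of 0.114). VARS2 shares exon bases with GTF2H4 on the same strand, at a mean of 10.1 TPM, so its value is uncertain. HARS1 to HARS2 differed by 0.055 and WARS1 to WARS2 by 0.064.

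**Figure D3:**
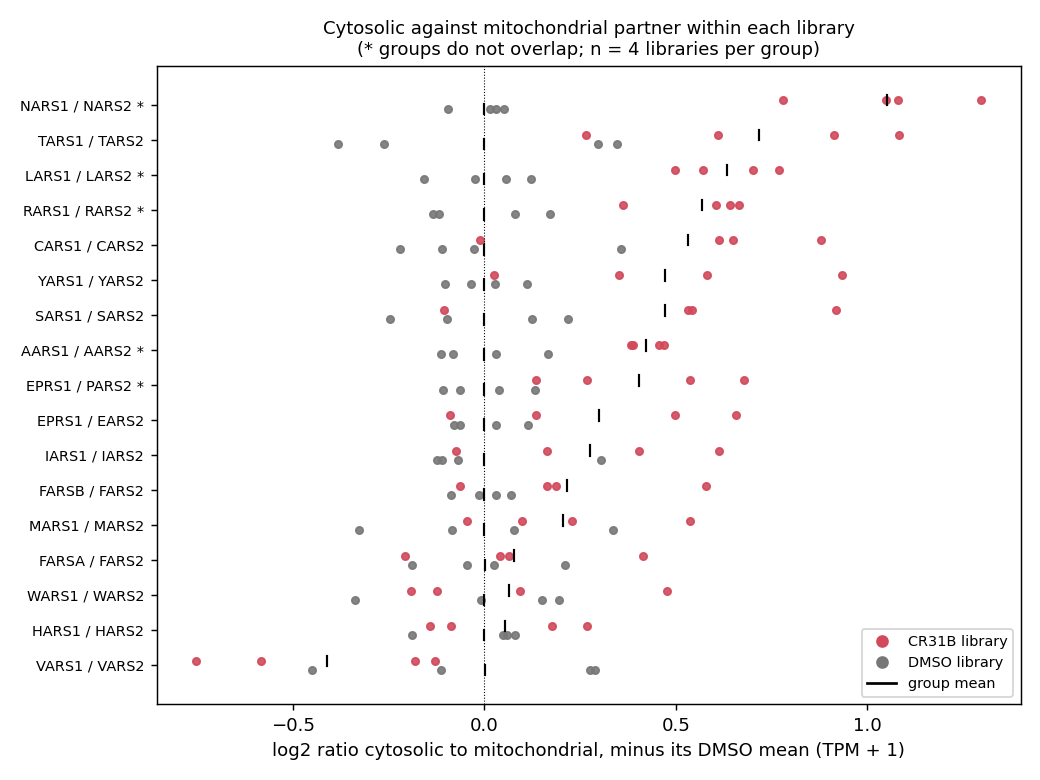
Log2 ratio of each cytosolic gene to its mitochondrial partner in every library, minus its DMSO mean (horizontal axis, on TPM + 1), for 17 pairs; points are libraries and ticks group means. Ratios lie higher in CR31B for 16 pairs, from a difference of 0.055 for HARS1 to HARS2 up to 1.05 for NARS1 to NARS2, and lower for VARS1 to VARS2.

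Levels per length were compared among members in DMSO. Cytosolic synthetases had a median of 72.1 TPM, from 10.3 in CARS1 to 224 in SARS1. Scaffold genes ran from 27.7 TPM in AIMP1 to 47.1 TPM in AIMP2. Mitochondrial synthetases had a median of 7.19 TPM, from 1.24 in PARS2 to 48.8 in NARS2, and 10 of 16 were below 10 TPM. In the order of DMSO means, SARS1 stood clear of MARS1 and YARS1, which overlapped one another. QARS1, FARSA, NARS1, IARS1, GARS1, LARS1, VARS1, WARS1 and TARS1 followed with overlapping ranges between neighbours. Over the whole order 32 of 37 neighbouring genes had overlapping ranges. AARS1, FARSB and CARS1 were the cytosolic genes that ranked below HARS2. FARSB was at 10.4 TPM while its partner subunit FARSA was at 92.9 TPM, and the FARSA to FARSB ratio stayed between 6.85 and 9.96 in all 8 libraries. Footprints lie mostly on coding sequence, so where TPM was computed over whole transcripts, long untranslated regions lower a gene's value.

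**Figure D4:**
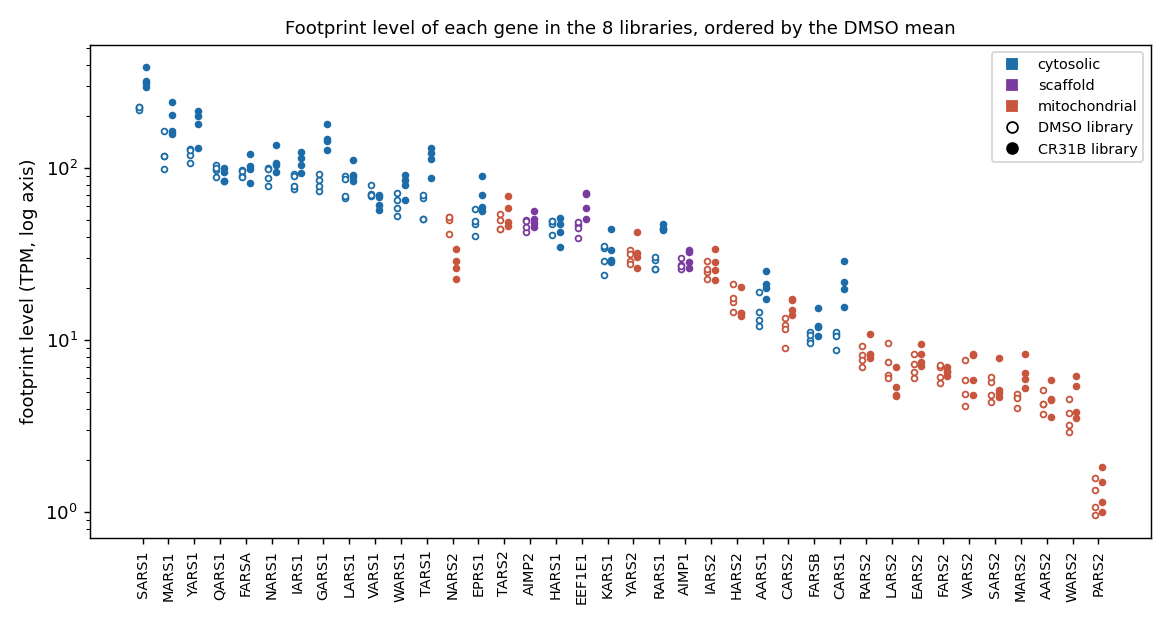
Footprint level in TPM (log axis) of the 38 members in each DMSO library (open points) and CR31B library (filled points), ordered by the DMSO mean. SARS1 is at the top, at 224 TPM, and PARS2 at the bottom, at 1.24 TPM.

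Other genes of tRNA charging and delivery were read from a separate list of 18, of which 17 were tested and DTD1 was under 1 TPM on average. DTD1 shares exon bases with AL121900.2 on the same strand, at a mean of 60.7 TPM, so its value is uncertain. The genes named from the list were chosen after their values were seen. None passed the limma test in either direction, and the median log2 fold change was 0.094. An unadjusted p under 0.05 was found for 5 of the 17, near the 23.4% of all genes tested. XPOT, which exports tRNA from the nucleus, was at 34.1, 29.6, 44.9 and 27.0 TPM in CR31B and at 21.2, 27.6, 25.5 and 25.3 TPM in DMSO. The groups overlapped by 1 library and the test was not passed (log2 fold change 0.41, limma adjusted p of 0.152). MTFMT, which formylates mitochondrial initiator methionyl-tRNA, had a log2 fold change of 0.43 (limma adjusted p of 0.150).

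The amidotransferase subunits GATB, GATC and QRSL1, which make mitochondrial glutaminyl-tRNA, lay between -0.12 and 0.094. GATC shares exon bases with AL021546.1 on the same strand, at a mean of 40.9 TPM, so its value is uncertain. The eEF1 factors, which bring charged tRNA to the ribosome, lay between -0.19 in EEF1A1 and 0.097 in EEF1D. With the replicate block 1 gene of the 17 was called higher and 1 lower, close to the 5.77% and 6.56% of all genes tested. The gene called higher was DTD2 (log2 fold change 0.64, limma adjusted p of 0.0253), which removes D-amino acids from tRNA. The gene called lower was TARS3, a second cytosolic threonyl-tRNA synthetase, at -0.52 (limma adjusted p of 0.0469). Mean TARS3 levels were 3.96 ± 1.01 TPM with CR31B and 6.12 ± 1.48 TPM with DMSO (SD, n = 4 each).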

How the data were processed

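The authors deposited 1 table of TPM for 60651 genes in 8 ribosome profiling libraries, with columns assigned through the descriptions in the labels. Per the submitters' processing notes, cutadapt 3.2, Bowtie2 2.3.4.1, STAR 2.7.1a, RSEM 1.2.28 and DESeq2 1.32.0 were used with hg38; roles, annotation release and strand setting are not given in the sources used here. Footprints are short, so reads of similar or overlapping genes may be shared. Besides HARS1, HARS2 and MARS1, other members share exon bases with genes on the opposite strand. Among them are EARS2 with UBFD1 (mean 130 TPM), AIMP2 with EIF2AK1 (37.9 TPM) and YARS1 with S100PBP (18.4 TPM). KARS1 with TERF2IP (11.5 TPM) and SARS2 with MRPS12 (7.84 TPM) are further cases. Without a strand setting their values and partner ratios are uncertain too.

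Symbols were found for 60481 identifiers, and GENCODE release 29 gave gene types and exon overlaps. Values were analysed as log2(TPM + 1), which understates changes of low genes, over genes averaging 1 TPM or more. limma 3.58.1 in R 4.3.3 (lmFit, eBayes with trend) had treatment as the only term, with Benjamini-Hochberg adjustment over all genes tested. No count model was used, since TPM are not counts. The fit was also tested on simulated data, with noise drawn independently for each library. Changes were given to a small share of the genes, and to none at low levels. There it called 20.4% of log2 changes of 0.5, 59.6% of those of 0.8 and 76.8% of those of 1. Changes of the smaller sizes were thus often missed in the simulated data. These shares do not carry over to members at low levels, most of them mitochondrial. Partner ratios were compared by the two-sided exact permutation test. Python 3.11.15 with SciPy 1.17.1 served for other steps.

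Same-numbered libraries tended to deviate together from their group means, with correlations across genes of 0.105 to 0.333, against -0.206 to 0.134 for different numbers. The ranges overlapped, since CR31B replicate 4 correlated at 0.134 with DMSO replicate 1 and at 0.105 with DMSO replicate 4. Pairs were thus inferred from these data, not from a label, and used in a fit with the replicate block. Other alternatives changed the pseudocount, the filter, the scaling, the trend or left out 1 library. In RefSeq promoter windows, orientation was checked against transcripts for 33 members and matched in 32. All members could be named. Those that passed, and their partners, were to be given in every library, and other genes by list. The members, lists and tests were chosen with earlier results of these data known.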

Additional observations from a re-analysis of the deposited data

Results flagged for a closer look

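In 80 groups of 4 libraries, 4 held a highest or lowest library whose distance to the nearest other, divided by the whole range, exceeded Dixon's 95% critical value for 4 samples, and about 4 would do so by chance. The cytosolic synthetases took 0.220% of TPM in CR31B replicate 1, while the rest of the CR31B group lay at 0.174% to 0.176%; it also had the highest share of protein-coding TPM, 61.3%, and its part in the value was not tested beyond the rescaled shares given above. In the same library HARS2 reached 20.4 TPM, and the remaining CR31B values were 13.8 to 14.4 TPM. DMSO replicate 4 had 79.3 TPM of VARS1, and the remaining DMSO values were 68.8 to 70.4 TPM. DMSO replicate 2 had 41.3 TPM of NARS2, below the 50.01 to 51.97 TPM of the rest of its group, and still lay above its highest CR31B value of 34.1 TPM.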

How the results depend on the processing

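Under the alternatives 131 summary values kept their direction and lay within 1.5 times the chosen count or 1 SD, and 17 counts moved. Cytosolic and scaffold genes called higher numbered 5 in the chosen fit, 8 with genes of at least 10 TPM, 9 after quantile normalization and 10 each after rescaling over protein-coding genes and with the replicate block. Over all genes, 406 were called higher and 473 lower. Without a filter these were 181 and 261, and with the replicate block 680 and 773. Those called higher were 289 of 5613 with genes of at least 10 TPM, 487 after quantile normalization and 544 after rescaling. Leaving out 1 library gave from 197 to 393 higher and from 208 to 486 lower. With replicate numbers as pairs, 10 partner ratios were higher in every pair. That rule is looser than the full separation of groups met by 5, so these counts do not compare like with like. Full separation was met by 4 with a pseudocount of 0.1 or 0.5 TPM. Among values of single members, 605 kept direction and side of the threshold, 22 became significant, 1 lost significance and 8 turned sign, none of them in a called gene. SARS1 was the call lost, without DMSO replicate 4. FARS2 was -0.019 after quantile normalization. When 1 library was left out, log2 fold changes ran from -0.17 to 0.0073 for HARS1, from -0.035 to 0.16 for AARS2, from -0.028 to 0.071 for FARS2, from -0.0043 to 0.18 for IARS2, from -0.014 to 0.15 for PARS2, from -0.071 to 0.15 for SARS2 and from -0.035 to 0.19 for YARS2. Quantile and median-of-ratios scaling were not applied to partner ratios. TPM does not give the depth, so its effect on single genes is not known.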

Other observations

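The E-box letters CACGTG, the core bound by MYC-family factors, were searched in the same RefSeq windows on both strands. They occurred in 3 of 14 mitochondrial genes with a promoter entry (CARS2, EARS2 and MARS2), in 1 of 16 cytosolic genes (IARS1), in 1 of 3 scaffold genes (AIMP2) and in 8.77% of all gene symbols. No cytosolic gene called higher held them. From the annotated start, the letters began at -3 in CARS2, -11 in MARS2, -75 in AIMP2 and -186 in IARS1. In EARS2 they began at -15 or 11, depending on the annotated start used.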
